A study of Mus musculus with 35 samples.

Results

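Mitochondrial ribosomal protein genes were followed in the comparison of brown with white fat of the mouse. They were taken as every gene whose symbol starts with Mrpl or Mrps followed by a digit, which gave 80 of the 18947 genes in the mRNA table. Of these, 76 encode proteins of the mitochondrial ribosome, 50 in its large and 26 in its small subunit. Mrps36 carries the name but is now counted as a subunit of the 2-oxoglutarate dehydrogenase complex, and 3 symbols (Mrps36-ps1, Mrps36-ps2 and Mrpl23-ps1) are pseudogenes. The study comprised 35 samples in 3 assays. The values used here come from mRNA sequencing of untreated male C57BL/6J mice of 15 weeks, with 4 libraries of iBAT (interscapular brown fat) and 4 of eWAT (epididymal white fat). The sample entries name the strain C57BL/6. Only the authors' own comparison of the 2 tissues was at hand, so values of single libraries are not analysed here and no SD or overlap between groups can be given. No label says that the libraries came from separate animals.

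The mitochondrial ribosome translates the few mRNAs encoded by mitochondrial DNA, all of which specify subunits of the respiratory chain and the ATP synthase. Its ribosomal RNAs come from mitochondrial DNA, while every one of its proteins is encoded in the nucleus, made in the cytosol and imported. Compared with its bacterial ancestor it has less RNA and more protein, and many of its proteins have no bacterial counterpart. Brown adipocytes are packed with mitochondria and burn fuel through the uncoupling protein Ucp1, whereas white adipocytes store triglyceride in a large droplet and hold few mitochondria.

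The header of the authors' deposited table does not state a direction. Ucp1 stood at a log2 fold change of 15.87 and Cidea at 9.58, and Lep stood at -2.77 and Wt1 at -6.80 in the authors' deposited table, so a positive value was read as higher in iBAT. Each fold change below is on the log2 scale with its standard error (SE), and each adjusted p is the deposited Benjamini-Hochberg value over all genes. A gene was called where that adjusted p was under 0.05. Base mean is the mean normalized count over all samples, and it had a median of 1811 over the 76 mitoribosomal genes against 342.8 over all genes, per the authors' deposited table. Whole fat pads were sequenced, so fewer cells of a type and less RNA per cell cannot be told apart.

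Most mitoribosomal protein genes were higher in brown fat, by modest amounts. Among all 80 members 52 were called higher, 26 uncalled and 2 lower according to the authors' deposited table. Over all genes of the authors' deposited table the share called higher was 20.9% and the share called lower 27.1%. Among the 76 genes of the ribosome itself, 50 were higher, 1 was lower and 25 were not called, with a median log2 fold change of 0.80 (1.74-fold) in the authors' deposited table, where the median over all genes was -0.10. Of the 80 members 32 were called higher by at least 1 log2 unit, against 11.0% of all genes, from the authors' deposited table. The fold changes of the 76 genes ran from -0.91 to 1.99 with an SD of 0.62 between genes, while the median SE of a single gene was 0.24 in the authors' deposited table. The genes therefore differed among themselves by more than their typical error.

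**Figure D1:**
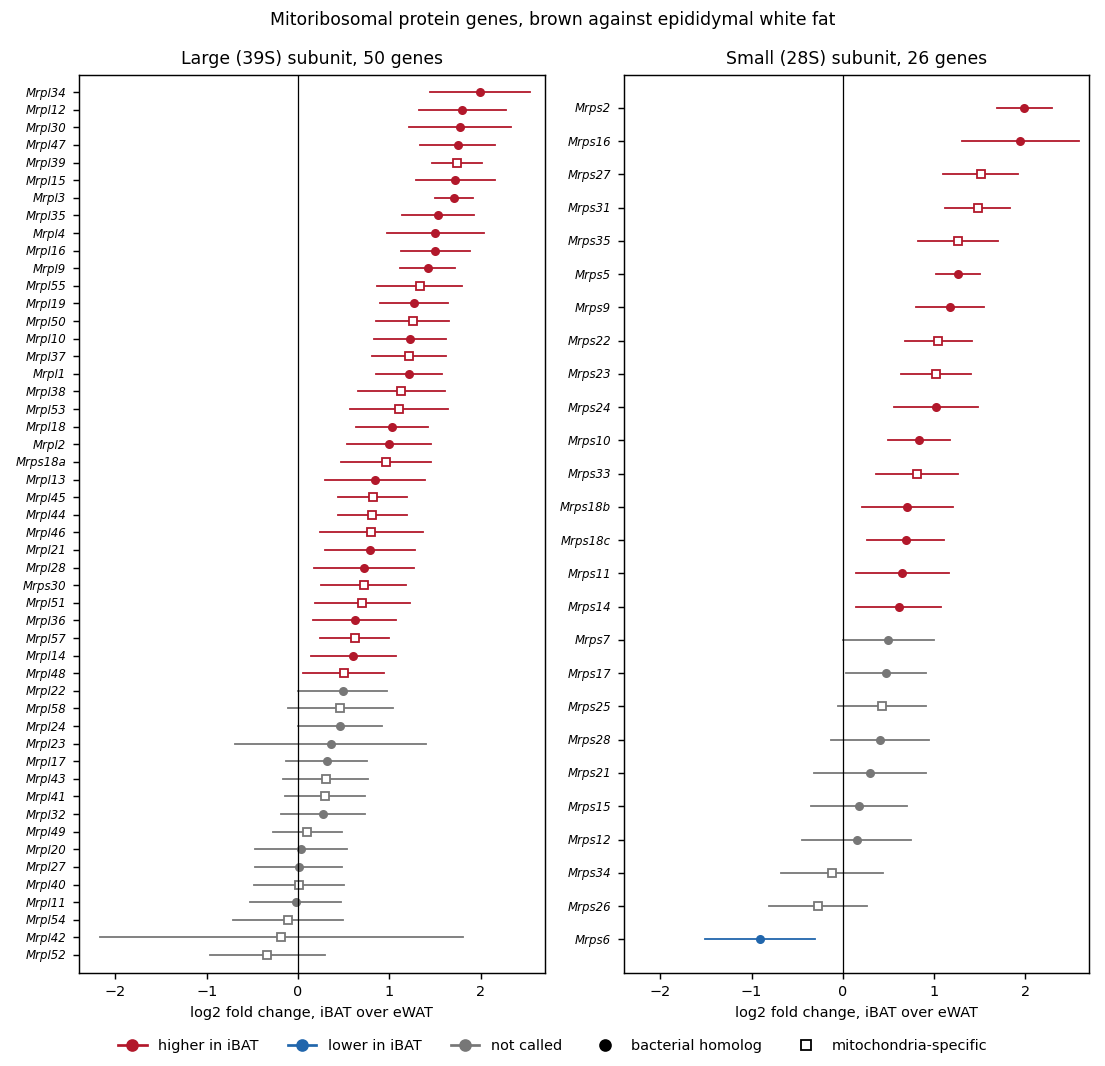
Log2 fold change of iBAT over eWAT for the 76 mitoribosomal protein genes, ranked within the large and the small subunit; points are the deposited values, bars are 95% intervals, filled circles are proteins with a bacterial homolog and open squares are mitochondria-specific proteins. Red marks the 50 genes called higher in iBAT, blue Mrps6, the gene called lower, and grey the 25 not called. Mrps18a, a paralog of bacterial S18, is drawn among the mitochondria-specific proteins.

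Markers of other cells moved with the comparison. All 20 skeletal muscle markers were higher in iBAT (3.93 to 17.69, median 7.12), per the authors' deposited table. All 10 macrophage markers (median -1.89), 6 of 8 lymphocyte, all 8 mesothelial (median -7.63) and all 6 epididymal markers (median -15.94) were lower according to the authors' deposited table. The 12 brown adipocyte markers were all higher and the 9 white adipocyte markers all lower, from the authors' deposited table. The direction was itself read from marker genes such as Ucp1 and Cidea, so these signs are no separate check of the tissue labels. Among 7 genes of both adipocyte types the authors' deposited table called 1 higher and 3 lower and left 3 uncalled. The part of these cells in the mitoribosomal values was not tested.

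The large subunit forms the peptide bond, and 34 of its 50 genes were higher, none lower and 16 not called, with a median of 0.81, per the authors' deposited table. Mrpl34 (ENSMUSG00000034880, GRCm38 chr8:71464926-71465753), a small protein of the ribosomal core, stood at 1.99 ± 0.28 (adjusted p = 2.84e-12), which is 3.98-fold; both come from the authors' deposited table. Mrpl3 (ENSMUSG00000032563), which reaches toward the catalytic centre, was the large-subunit gene with the smallest error at 1.71 ± 0.11 (adjusted p = 3.66e-57) according to the authors' deposited table. Mrpl39 (1.74 ± 0.14, adjusted p = 5.41e-34), a mitochondria-specific protein, and Mrpl30 (1.77 ± 0.29, adjusted p = 1.11e-09; base mean 103) were also higher, from the authors' deposited table. Mrpl51, the ribosomal gene with the highest base mean (5885), was given in the authors' deposited table at 0.70 ± 0.26 (adjusted p = 0.014). When fold changes were shifted by the median of the genes of above-median base mean and p was recomputed from fold change and SE, the Mrpl51 call was lost (0.60), while the recomputed p alone left it. The other large-subunit genes called higher ran from Mrpl14 at 0.60 ± 0.24 to Mrpl15 at 1.72 ± 0.22 in the authors' deposited table, apart from those of the regions described next.

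The L7/L12 stalk, a flexible arm that recruits translation factors, was split. Mrpl12, the stalk protein itself, which is also described as a partner of the mitochondrial RNA polymerase, was higher at 1.80 ± 0.24 (adjusted p = 3.64e-13; base mean 4776), per the authors' deposited table. Mrpl10, which anchors the stalk, was higher at 1.22 ± 0.20, and Mrpl53, found at the stalk base, at 1.11 ± 0.27 according to the authors' deposited table. Mrpl11, the other bacterial-type protein of the base, stood at -0.03 ± 0.25 (adjusted p = 0.941) and Mrpl54 at -0.11 ± 0.31 (adjusted p = 0.785), as the authors' deposited table lists them. The 95% interval of Mrpl11 ended at 0.47 and that of Mrpl54 at 0.50, below the lower ends of Mrpl12 (1.32), Mrpl10 (0.83) and Mrpl53 (0.57), from SEs of the authors' deposited table. Differences between these genes, which share the same libraries, were not tested.

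The central protuberance and the peptide exit region held 7 of the 16 uncalled genes of the large subunit. Of 7 genes of the protuberance, a knob that contacts the small subunit, 4 were higher in the authors' deposited table and 3 missed the threshold. Mrpl38 stood at 1.13 ± 0.24, Mrpl18 at 1.03 ± 0.20 and Mrpl46 at 0.80 ± 0.29, per the authors' deposited table. In the authors' deposited table Mrpl48 lay just inside the threshold at 0.50 ± 0.23 (adjusted p = 0.0498), and it lost the call when p was recomputed from the ratio of fold change to SE. Mrpl58, a peptidyl-tRNA hydrolase that became a ribosomal subunit, was not called at 0.46 ± 0.30 (adjusted p = 0.168), nor were Mrpl40 at 0.01 ± 0.25 and Mrpl52 at -0.34 ± 0.32 (adjusted p = 0.381), as the authors' deposited table lists them.

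Around the tunnel through which the new chain leaves, 2 of 6 genes were higher and 4 not called according to the authors' deposited table. Mrpl47 (1.75 ± 0.21, adjusted p = 5.1e-16) and Mrpl45 (0.82 ± 0.19, adjusted p = 6.57e-05), which tethers the ribosome to the inner membrane, were the genes that passed, from the authors' deposited table. Mrpl22 (0.49 ± 0.25, adjusted p = 0.0825), Mrpl24 (0.46 ± 0.23, adjusted p = 0.0831) and Mrpl17 (0.31 ± 0.22, adjusted p = 0.238) did not in the authors' deposited table. Mrpl23, the remaining gene of that ring, had a base mean of 18.1 and an SE of 0.53 in the authors' deposited table, and its 95% interval ran from -0.69 to 1.40.

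The small subunit, which binds the mRNA and reads its codons, had 16 of 26 genes higher, 1 lower and 9 not called, with a median of 0.70, per the authors' deposited table. Mrps2 (ENSMUSG00000035772, GRCm38 chr2:28465951-28471177) stood highest among them at 1.99 ± 0.15 (adjusted p = 9.72e-38), a 3.97-fold difference according to the authors' deposited table. Mrps16 was at 1.94 ± 0.33 (adjusted p = 4.44e-09) on a base mean of 103, from the authors' deposited table. The mitochondria-specific proteins Mrps27, which has pentatricopeptide repeats, at 1.51 ± 0.21, Mrps31 at 1.48 ± 0.18 and Mrps35 at 1.26 ± 0.22 followed in the authors' deposited table. At the mRNA entrance Mrps5 was higher at 1.26 ± 0.12 (adjusted p = 4.87e-24) and Mrps24 at 1.02 ± 0.24, while Mrps12, which lines the decoding centre, stood at 0.15 ± 0.30 (adjusted p = 0.697), per the authors' deposited table. Of the others, the authors' deposited table called Mrps9 (1.18 ± 0.19), Mrps10 (0.83 ± 0.17), Mrps33 (0.81 ± 0.23) and Mrps11 (0.65 ± 0.26) higher. Mrps15 (0.18 ± 0.27) and Mrps21 (0.29 ± 0.31) were uncalled in the authors' deposited table at base means of 3407 and 3192.

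Paralogs of bacterial protein S18 offered a comparison within the ribosome. Mrps18a, which sits in the large subunit despite its name, stood at 0.96 ± 0.25, Mrps18b at 0.70 ± 0.25 and Mrps18c at 0.69 ± 0.22, all called higher according to the authors' deposited table. Their 95% intervals overlapped widely, differences among them were not tested, and no order is read. Mrps18a shares 6871 bases of its span with Rsph9 on the other strand, which was lower in iBAT at -2.71 ± 0.33, from the authors' deposited table.

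Mrps6 (ENSMUSG00000039680, GRCm38 chr16:92058336-92112227), the mitochondrial form of bacterial protein S6, was the ribosomal gene called lower in brown fat. It stood at -0.91 ± 0.31 (adjusted p = 0.00541; base mean 2029), with a 95% interval from -1.51 to -0.30 in the authors' deposited table. Shifted by the median of the cytosolic ribosomal protein genes, with p recomputed from fold change and SE, it was no longer called (-0.35), while the recomputed p alone left the call. The annotated span of Slc5a3, a myo-inositol transporter gene on the same strand, overlaps that of Mrps6 over 29138 bases. In the authors' deposited table Slc5a3 itself was not called (-0.36 ± 0.28, adjusted p = 0.268), and how reads were shared between the 2 genes was not tested.

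The other ribosomal genes that missed the threshold were mostly close to 0 or on the brown side of it. Among the 25 uncalled genes 19 had a positive and 6 a negative fold change, with a median of 0.28, per the authors' deposited table. For 21 of the 25 the 95% interval lay within 1 log2 unit of 0 on both sides, so a difference as large as 1 lay outside it for these genes. Mrps26 (-0.27 ± 0.28) and Mrps34 (-0.12 ± 0.29) stood on the white side of 0, and Mrpl20 (0.03 ± 0.26), Mrpl27 (0.01 ± 0.24) and Mrpl49 (0.10 ± 0.19) near it according to the authors' deposited table. Just outside the threshold were Mrps17 (0.47 ± 0.22, adjusted p = 0.0606) and Mrps7 (0.50 ± 0.26, adjusted p = 0.0845), from the authors' deposited table. Mrpl42 had a base mean of 2.24 and an SE of 1.02 in the authors' deposited table, and its 95% interval ran from -2.17 to 1.81.

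Members outside the ribosome lay at both ends of the range. Mrps36 (ENSMUSG00000061474, GRCm38 chr13:100735940-100744659) was 8.28-fold higher in iBAT, at 3.05 ± 0.19 (adjusted p = 1.74e-55), and its interval from 2.67 to 3.43 lay above every ribosomal gene's value in the authors' deposited table. The enzyme subunits that Mrps36 is described to join stood at 3.75 ± 0.15 (Ogdh), 3.77 ± 0.35 (Dlst) and 2.63 ± 0.14 (Dld), per the authors' deposited table. The pseudogene Mrps36-ps2 was called higher in the authors' deposited table at 4.63 ± 4.03 on a base mean of 3.59, an SE that leaves its size unresolved, and the call was lost at an adjusted p of 0.397 with p recomputed from fold change and SE. In the authors' deposited table Mrps36-ps1, uncalled, had a base mean of only 0.997. Mrpl23-ps1 was called lower at -1.21 ± 0.56 (adjusted p = 0.0252) with a base mean of 897.5, while its parent gene Mrpl23 had 18.1 and stood at 0.36 ± 0.53 (adjusted p = 0.547) according to the authors' deposited table. With p recomputed in the same way Mrpl23-ps1 was not called either (adjusted p = 0.0676). Reads of near-identical copies can be divided between them in counting, so these parent and pseudogene values are uncertain.

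**Figure D2:**
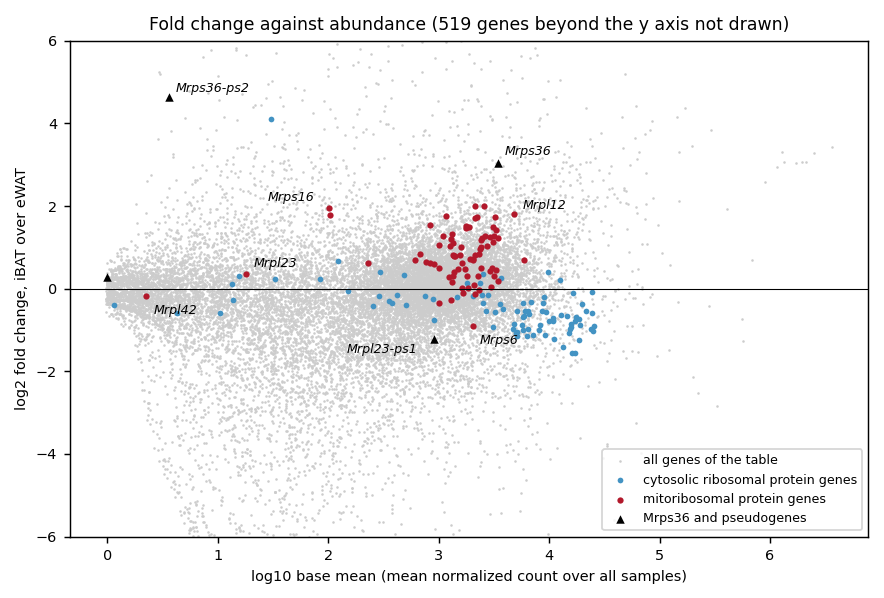
Log2 fold change of iBAT over eWAT against log10 base mean, with all genes of the table in grey, the 76 mitoribosomal genes in red, cytosolic ribosomal protein genes in blue and Mrps36 with the 3 pseudogenes as black triangles; 519 genes beyond 6 log2 units are not drawn. The red points lie mostly above 0 and the blue points mostly below it on the deposited scale, and Mrpl42 and Mrpl23 stand apart at low base mean.

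By evolutionary origin the medians lay close together. Proteins with a bacterial homolog had 30 of 45 genes higher and 1 lower (median 0.79), and mitochondria-specific proteins 20 of 31 higher and none lower (median 0.80), from the authors' deposited table. In the large subunit the medians were 1.01 for the 28 bacterial-type genes and 0.71 for the 22 mitochondria-specific ones in the authors' deposited table. Mrps18a, though a paralog of bacterial S18, was counted among these 22. In the small subunit the order was the opposite, at 0.65 for 17 and 1.02 for 9 genes, per the authors' deposited table. Of 14 genes in which variants are known to cause human mitochondrial disease, 9 were higher, none lower and 5 not called, with a median of 0.92 according to the authors' deposited table. They included Mrps22 (1.05 ± 0.19), Mrps23 (1.02 ± 0.20), Mrpl44 (0.81 ± 0.19) and Mrps14 (0.61 ± 0.24) among those called, with Mrps28 (0.41 ± 0.27) and Mrps25 (0.43 ± 0.25) among those not called, from the authors' deposited table.

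Mitoribosomal proteins that carry other symbols, 5 in number, gave 3 higher and 2 uncalled genes in the authors' deposited table. Ptcd3, an RNA-binding protein at the mRNA entrance, stood at 1.93 ± 0.23 (adjusted p = 5.23e-16), per the authors' deposited table. Dap3, a GTP-binding protein of the small subunit, was at 0.70 ± 0.25 and Aurkaip1 at 0.61 ± 0.27, both called, while Chchd1 (0.40 ± 0.32) and Gadd45gip1 (0.24 ± 0.34) were not according to the authors' deposited table.

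The partners of the ribosome in mitochondrial translation were higher too. Of 17 genes for translation factors and helpers 14 were higher, none lower and 3 not called, with a median of 1.19, from the authors' deposited table. Lrpprc, which stabilises mitochondrial mRNAs (2.54 ± 0.20), and the elongation factor gene Gfm1 (2.42 ± 0.21) led this list in the authors' deposited table. The recycling factor gene Mrrf (0.17 ± 0.21) and the release factor gene Mtrf1l (0.19 ± 0.24) stayed uncalled in the authors' deposited table. Genes that charge mitochondrial transfer RNAs were higher in 19 of 20 cases (median 1.05), with Qrsl1 at 2.26 ± 0.14 and Aars2 at 2.15 ± 0.21 the largest and Ears2 not called at -0.03 ± 0.20, per the authors' deposited table.

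Assembly of the ribosome and upkeep of mitochondrial DNA showed smaller medians. Of 25 assembly and ribosomal RNA modification genes 17 were higher and none lower (median 0.63), among them Nsun4, an RNA methyltransferase (1.51 ± 0.17), and Eral1, a chaperone of the small ribosomal RNA (1.45 ± 0.17) according to the authors' deposited table. Ddx28 (0.01 ± 0.22) and Mpv17l2 (0.03 ± 0.34) stayed uncalled, from the authors' deposited table. Of 13 genes for copying and transcribing mitochondrial DNA 8 were higher and none lower (median 0.64), with the transcription factor gene Tfb2m (1.65 ± 0.21) and Mterf2 (1.57 ± 0.23) at its upper end in the authors' deposited table. At its lower end the authors' deposited table did not call Mterf1a (-0.32 ± 0.22) or Mterf1b (-0.08 ± 0.33).

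The mRNAs that the ribosome reads, and the respiratory and fuel-burning genes around it, had larger medians than the ribosome. The 13 mRNAs encoded by mitochondrial DNA, which this ribosome translates, were all called higher with a median of 3.07 in the authors' deposited table. Nuclear genes for respiratory chain and ATP synthase subunits were called higher for 80 of 87 and lower for 1 (median 1.79), and all 18 tricarboxylic acid cycle genes were higher (median 2.83), per the authors' deposited table. Of the 76 mitoribosomal genes 4 lay above the median of the nuclear respiratory genes and 72 below it, and none reached the median of the cycle genes according to the authors' deposited table. Over all genes of the authors' deposited table the upper quartile was 0.46, so most genes also lay below both medians. Conversely, 37 of the 87 nuclear respiratory genes and 15 of the 18 cycle genes lay above Mrpl34, the highest mitoribosomal gene, from the authors' deposited table. Those 37 include Cox7a1 and Cox8b, which also count among the brown adipocyte markers. These differences between lists are given as medians and counts with no test.

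Cytosolic ribosomal protein genes had the opposite sign on balance. Of 90 such genes 3 were higher, 42 lower and 45 not called, with a median of -0.55 in the authors' deposited table. The mitoribosomal genes lay above that median in 75 of 76 cases, with Mrps6 below it in the authors' deposited table. The median over all genes of the authors' deposited table was -0.10, so most genes also lay above the cytosolic median. Both the mitoribosomal and the cytosolic values move together with any rescaling of the 2 tissues, but the gap between their medians does not.

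**Figure D3:**
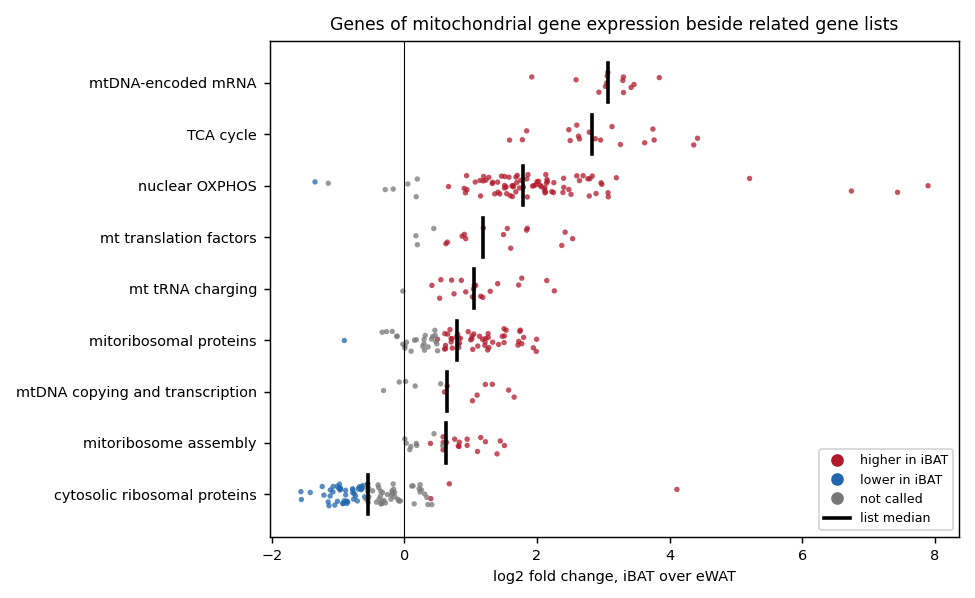
Log2 fold change of iBAT over eWAT for each gene (points, red higher, blue lower, grey not called) in 9 gene lists, with a black bar at each list's median. Mitoribosomal proteins (median 0.80) stand between the cytosolic ribosomal proteins (-0.55) and the nuclear respiratory genes (1.79).

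Regulators described to act on nuclear genes for mitochondria showed 6 of 12 higher, 6 uncalled and none lower, per the authors' deposited table. The coactivator gene Ppargc1b (4.93 ± 0.21) and the nuclear receptor gene Esrrg (3.83 ± 0.55) had the largest values, and Pprc1 (-0.18 ± 0.39) and Myc (-0.22 ± 0.21), both uncalled, the smallest according to the authors' deposited table. Gabpa, the DNA-binding subunit of nuclear respiratory factor 2 and an ETS protein, was higher at 1.48 ± 0.36, while the authors' deposited table did not call Nrf1 (0.09 ± 0.18, adjusted p = 0.697) or Yy1 (0.28 ± 0.24, adjusted p = 0.322).

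Promoters were examined because the genes were mostly higher together. RefSeq windows of GRCm38.p6 from 250 bases before to 50 after each start were found for 67 of the 76 genes, 73 windows in all. Their median GC content was 59% with 22 CpG, against 59% and 17 CpG in windows of all genes in the mRNA table. The NRF1 word CGCANGCGC, read on both strands, was in 24.7% of the mitoribosomal windows, 6.31% of all 32851 windows and 10.5% of the 16639 windows of genes in the mRNA table. The ETS word CCGGAAG was in 34.2%, 8.86% and 13.9% of them, the YY1 word AANATGGCG in 15.1%, 2.38% and 3.82%, and the CRE word TGACGTCA in 2.74%, 1.79% and 2.57%. Windows of nuclear respiratory genes held the NRF1 word in 34.3% and the ETS word in 22.9% of cases, and those of cytosolic ribosomal protein genes in 11.8% and 35.5%. A palindromic NRF1 stretch matches on both strands, and a word is only a match of letters.

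Among these genes the medians were no larger where the NRF1 or ETS word was present. The median was 0.66 for the 18 genes with the NRF1 word and 0.79 for the 49 without, and 0.70 for the 25 genes with the ETS word and 0.81 for the 42 without, with fold changes from the authors' deposited table. The following sequences, read 5′ to 3′ on the gene's strand with matched words in capitals, show the 2 commoner words beside genes of high and of unresolved fold change. The first 4 are the 250 bases before the start of Mrpl12 (chr11:120484387-120484636, plus strand), Mrpl39 (chr16:84735245-84735494, minus strand), Mrpl3 (chr9:105053018-105053267, plus strand) and Mrpl52 (chr14:54426659-54426908, plus strand). The NRF1 word stands in Mrpl12 and Mrpl39, and the ETS word in Mrpl3 and Mrpl52.
Mrpl12: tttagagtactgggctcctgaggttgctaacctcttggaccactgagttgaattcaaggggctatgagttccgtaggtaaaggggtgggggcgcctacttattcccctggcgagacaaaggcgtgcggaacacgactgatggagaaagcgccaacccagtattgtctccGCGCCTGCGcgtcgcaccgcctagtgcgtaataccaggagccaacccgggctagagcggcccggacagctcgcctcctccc
Mrpl39: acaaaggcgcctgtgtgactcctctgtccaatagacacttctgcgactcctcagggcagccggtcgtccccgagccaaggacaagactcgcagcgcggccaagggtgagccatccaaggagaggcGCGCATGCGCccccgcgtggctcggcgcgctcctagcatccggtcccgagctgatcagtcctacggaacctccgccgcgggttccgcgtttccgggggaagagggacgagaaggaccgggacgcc
Mrpl3: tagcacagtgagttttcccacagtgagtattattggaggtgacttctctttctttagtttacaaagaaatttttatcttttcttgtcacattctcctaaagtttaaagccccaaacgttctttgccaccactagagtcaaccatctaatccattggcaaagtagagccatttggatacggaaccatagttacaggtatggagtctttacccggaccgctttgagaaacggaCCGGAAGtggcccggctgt
Mrpl52: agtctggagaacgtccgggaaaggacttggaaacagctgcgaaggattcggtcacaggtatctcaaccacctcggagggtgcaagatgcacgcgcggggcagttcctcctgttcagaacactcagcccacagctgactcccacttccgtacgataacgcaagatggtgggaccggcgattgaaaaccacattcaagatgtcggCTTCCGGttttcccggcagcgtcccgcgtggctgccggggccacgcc

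Many of these genes start back to back with another gene, so that 1 stretch of DNA lies upstream of both starts. The annotated spans of some pairs also overlap, such as Mrpl18 with Tcp1 (1459 bases), Mrpl14 with Tmem63b (622) and Mrps7 with Gga3 (378). How reads were shared within such pairs was not tested. A start on the other strand within 1000 bases upstream was found for 26 of the 67 genes (38.8%), against 16.3% of the 13216 genes of the mRNA table with a window. For 24 of the 26 the partner was in the mRNA table, and of these 24 partners 13 were called higher, 10 uncalled and 1 lower, from the authors' deposited table. Mrps11 and Mrpl46 face each other, so both are mitoribosomal genes that also count among the partners called higher. Over all genes the share called higher was 20.9% and the share called lower 27.1%. The share among partners of back-to-back genes in general was not computed. Several partners also serve mitochondria. Mrpl47 faces Ndufb5, a complex I gene at 2.15 ± 0.22, and Mrps27 (1.51 ± 0.21) faces Ptcd2, an RNA-processing gene at 1.42 ± 0.16 in the authors' deposited table. Mrpl46 (0.80 ± 0.29) and Mrps11 (0.65 ± 0.26), genes of different subunits, have starts 42 bases apart on opposite strands and were both called higher, per the authors' deposited table. The Mrps11 call was lost (0.55) after the shift by the genes of above-median base mean.

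Other pairs had calls that differed, and the difference within a pair was not tested. Mrps12 (0.15 ± 0.30) faces Sars2, the mitochondrial seryl-tRNA synthetase gene, which was higher at 1.29 ± 0.29, and Mrpl43 (0.30 ± 0.24) faces Twnk, the mitochondrial DNA helicase gene, at 1.10 ± 0.16 according to the authors' deposited table. Mrpl30 (1.77 ± 0.29) and Mrpl37 (1.22 ± 0.21) were higher beside uncalled partners, Mitd1 (-0.48 ± 0.27) and Cyb5rl (-0.29 ± 0.22), from the authors' deposited table. The annotated spans of Mrpl43 and Twnk overlap over 780 bases, and those of Mrpl37 and Cyb5rl over 37. Mrpl49 (0.10 ± 0.19) faces Fau, a cytosolic ribosomal protein gene, the one partner called lower (-1.09 ± 0.29) in the authors' deposited table. Over the 23 distinct pairs the fold changes had a Pearson r of 0.31 and a Spearman rho of 0.24, a description across genes that share the same libraries. The shared stretch of the pair Mrps11 and Mrpl46 (chr7:78783090-78783130, given on the plus strand of Mrps11) holds none of the 4 words. Farther upstream, the 250 bases before the Mrps11 start hold the YY1 word in 1 place. The shared stretch of Mrpl32 and the proteasome gene Psma2 (chr13:14613038-14613241, given on the minus strand of Mrpl32) holds the NRF1 word in 2 places, in capitals. It lies beside an uncalled Mrpl32 (0.28 ± 0.24) and a Psma2 called higher at 0.37 ± 0.15, per the authors' deposited table.
Mrps11 and Mrpl46: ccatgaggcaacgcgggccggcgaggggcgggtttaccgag
Mrpl32 and Psma2: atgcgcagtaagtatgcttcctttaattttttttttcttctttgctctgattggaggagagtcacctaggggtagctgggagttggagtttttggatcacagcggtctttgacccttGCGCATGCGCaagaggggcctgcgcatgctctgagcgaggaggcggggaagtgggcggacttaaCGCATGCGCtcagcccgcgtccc

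**Figure D4:**
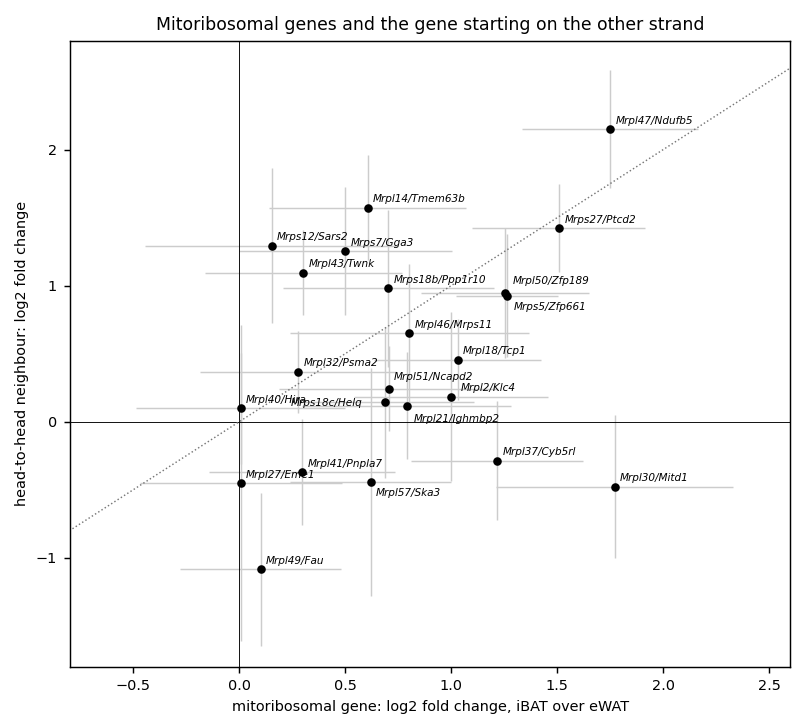
Log2 fold change, iBAT over eWAT, of each mitoribosomal gene (x axis) and of the gene that starts within 1000 bases on the other strand (y axis) for 23 pairs; grey bars are 95% intervals and the dotted line marks equal values. Mrpl47 with Ndufb5 and Mrps27 with Ptcd2 lie near the line at the upper right, and Mrpl30 with Mitd1 lies far from it.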

How the data were processed

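Gene expression was measured by mRNA sequencing in 4 iBAT and 4 eWAT samples, grouped by their labels. TRIzol and column purification gave the RNA and a stranded kit for total RNA the libraries, per the labels' protocols. Among tools and builds, kallisto 0.45.0, DESeq2, DESeq, GRCm38 and mm10 appear in the submitters' processing notes, with no roles. Which annotation and test were used is not stated in the sources at hand.

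The authors deposited the base mean, a signal: per the file headers, counts were normalized by size factors and averaged over every sample. Fold changes and SEs are on the log2 scale, as deposited, and their direction was read from marker genes. P-values, raw and adjusted, were also taken as deposited, and Benjamini-Hochberg adjustment of the former gave the latter within 2.4e-07. The p-value equalled that from fold change over SE within 0.01 (log10) for 10.7% of genes and 7.5% of members, so the deposited p does not follow from the printed SE. The depth of single libraries is unknown.

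Symbols were matched for 18758 of 18947 genes, and positions come from RefSeq for GRCm38.p6. Intervals are from the fold change and its SE on the normal scale, at 95%. Protein groups were assigned from textbook knowledge. Members and lists were chosen with earlier results of these data known. Genes were named by a rule: the 6 largest and 6 smallest fold changes, genes not called or lower, the 4 highest base means, the structural and disease lists, the S18 paralogs, Mrps36 and pseudogenes, the 5 ribosomal genes of other symbols, and the 2 largest and 2 smallest fold changes of each other list. One gene that this rule names is not reported here. Other genes named, and the printed promoters, were chosen after their values were seen. Motif words were searched by script (Python 3.11.15, pandas 2.3.3). Recomputed p-values and their adjustment were tested on simulated data. The simulated errors were drawn from the same SEs that the test used, so this checks the computation and not how well the SEs describe the data. Alternatives covered p-values, 3 scalings (each with p recomputed from the shifted fold change and SE), base mean minimums of 10 and 100, a threshold of 0.01 and the choice of members. The Argonaute and miRNA samples were not used here.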

Additional observations from a re-analysis of the deposited data

How the results depend on the processing

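The count of 52 members higher in iBAT ranged from 43 (adjusted p under 0.01) to 69 (centred on the cytosolic ribosomal protein genes) over the 9 alternatives run, within 1.5 times the reported count in each. All 3 centrings also recompute p from fold change over SE, so they change both at once. Centring on the cytosolic ribosomal protein genes shifts all fold changes by 0.55 and gave a median of 1.35 in place of 0.80 and 56 members higher by at least 1 log2 unit in place of 32. It also turned the calls over all genes from 3965 higher and 5135 lower to 7120 and 2650. The count of 2 lower members became 1 with p from fold change over SE, centred on the median of all genes, at an adjusted p under 0.01 and without pseudogenes and Mrps36, and 0 when centred on the cytosolic ribosomal protein genes. Mrpl23-ps1 lost its call from the recomputed p alone (adjusted p = 0.0676), and Mrps6 lost it in the centring on the cytosolic ribosomal protein genes and not from the recomputed p alone. Centring on the genes of above-median base mean (shift of 0.10) left 44 higher. Of the 8 calls lost there, Mrpl48 and Mrps36-ps2 were already lost from the recomputed p alone, and Mrpl14, Mrpl28, Mrpl36, Mrpl51, Mrps11 and Mrps14 were not. Of the 80 single calls, 77 stayed with p from fold change over SE, and Mrpl48, Mrps36-ps2 and Mrpl23-ps1 did not. No paired analysis was possible because the mRNA table holds no value per library, and leaving out replicates was not run for the same reason.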
